A study of Mus musculus with 2 samples.

Results

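The strongest shared promoter peaks of MN1 cells were the promoter sites that ranked near the top of the DNase I accessibility lists of both replicates. A peak of replicate 1 on chromosomes 1 to 19 or X was taken if its score lay in the top 10% of its list, if it overlapped by 1 bp or more a peak in the top 10% of the list of replicate 2, and if its centre lay within 1 kb of a start site of a protein-coding gene in GENCODE release M21. The rule found 10086 of 170217 peaks in replicate 1, and the same rule run from the positions of replicate 2 found 10101 of 162648. MN1 is a line of immortalized cells derived from B6NCrl mice. Its labels name neither a tissue nor a treatment, give the age as unknown and leave sex uncollected. DNase-seq was done on 2 biological replicates with 1 library each, so the series has 1 group and no second condition. The members were selected on the score of both lists, so their scores, their overlap and their place near a start site are given as descriptions without a test. Other values are given from the positions of replicate 1 and of replicate 2. Because the rule asks for overlap in both lists, these are largely the same sites with centres a median of 20 bp apart. For sequence and position, the gap between the replicates therefore shows mostly the effect of where the centre was placed. It is not an independent replicate error, and none other is at hand. The strongest shared promoter peaks are set beside 20897 other shared promoter peaks in replicate 1 (20840 in replicate 2), which overlapped a peak of the other list but missed the top 10% in 1 list or in both, and beside 3662 strong shared distal peaks (3658 in replicate 2), which passed both score thresholds but lay over 1 kb from any coding start site.

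DNase I cuts DNA that is not wrapped in nucleosomes or covered by other proteins, so a peak marks a stretch that the enzyme could reach in many of the nuclei. At active promoters the nucleosome upstream of the start site is usually displaced, and transcription factors and the initiation machinery occupy the gap. In mammals most promoters of widely used genes lie in CpG islands, where the CG dinucleotide has escaped the loss seen in the rest of the genome. Such promoters often carry short GC-rich or CCAAT-containing motifs bound by factors of the ETS, SP/KLF, NRF1 and NFY families, whereas promoters of tissue-restricted genes more often depend on distal enhancers.

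The sequences of leading members show the short motifs on which the later comparisons turn. On both strands of the 150 bp at each peak centre, 17 motifs were searched: ETS (CCGGAAG), NRF1 (GCGCANGCG), SP/KLF (GGGCGGG), NFY (CCAATCA, with the further forms CCAATGA and then CCAATCG as well as CCAATGG), CRE, the cAMP response element (TGACGTNA), YY1 (AANATGGCG), the E-box of USF and MYC (TCACGTG), an RFX half-site (GTTGCCANG), BANP (CTCGCGAG), ZFP143 (ACTACAATT), E2F (TTTCCCGC, with TTTGGCGC and also TTTGCCGC as further forms), AP-1 (TGANTCA), the TATA box (TATAAA), the E-box CAGCTG, the homeodomain letters TAATTA and the motif of GATA factors (AGATAAG). The last of the 17, CTCF, was searched by its longer consensus and is given by name only. A sequence that reads the same on both strands was counted once. Matches of different motifs rarely shared bases: E2F and SP/KLF did so in 28 members, ETS and SP/KLF in 24, NFY and SP/KLF in 11, and AP-1 with the E-box of USF and MYC in 9. For each motif, the member with the highest mean score percentile and a match within 25 bp of its centre was chosen. The sequences are from the RefSeq copy of GRCm38, the assembly called mm10, and run 5' to 3' along the strand of the nearest gene with the match in capitals. They lie at chr1:88277604-88277633 (minus strand) for Hjurp, at chr15:36609076-36609225 (minus) for Pabpc1, at chr10:128337596-128337733 (plus) for Cs, at chr10:118141656-118141805 (plus) for Mdm1, at chr4:141060756-141060905 (minus) for Crocc, at chr15:79328357-79328386 (minus) for Pla2g6, at chr17:56325756-56325905 (plus) for Kdm4b, at chr10:58323396-58323465 (plus) for Lims1 and at chr10:128566016-128566165 (minus) for Pa2g4. Annotated exons were left out, so Cs and Lims1 are cut at the exon, and Hjurp and Pla2g6, whose peak centres lie in a 5' UTR, are shown as 30 bases around the match.
Hjurp, ETS: ttctcgtttccaCCGGAAGtgctccctggg
Pabpc1, NRF1: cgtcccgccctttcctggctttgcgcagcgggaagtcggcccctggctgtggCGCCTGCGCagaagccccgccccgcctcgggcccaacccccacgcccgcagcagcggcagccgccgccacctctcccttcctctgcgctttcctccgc
Cs, SP/KLF: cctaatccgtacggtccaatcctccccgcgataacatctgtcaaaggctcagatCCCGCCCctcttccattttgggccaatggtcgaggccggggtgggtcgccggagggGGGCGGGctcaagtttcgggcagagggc
Mdm1, NFY: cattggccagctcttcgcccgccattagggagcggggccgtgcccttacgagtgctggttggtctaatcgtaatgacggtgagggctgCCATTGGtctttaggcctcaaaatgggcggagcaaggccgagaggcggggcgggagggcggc
Crocc, CRE: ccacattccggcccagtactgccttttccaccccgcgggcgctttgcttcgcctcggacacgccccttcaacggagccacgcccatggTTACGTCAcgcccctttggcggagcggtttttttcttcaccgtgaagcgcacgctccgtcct
Pla2g6, YY1: ggcagttatagAAGATGGCGgcgcctgacc
Kdm4b, USF/MYC E-box: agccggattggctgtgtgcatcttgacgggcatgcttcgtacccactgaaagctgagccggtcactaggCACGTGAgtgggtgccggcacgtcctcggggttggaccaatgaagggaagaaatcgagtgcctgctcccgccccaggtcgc
Lims1, BANP: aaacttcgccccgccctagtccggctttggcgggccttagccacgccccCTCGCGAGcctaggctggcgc
Pa2g4, ZFP143: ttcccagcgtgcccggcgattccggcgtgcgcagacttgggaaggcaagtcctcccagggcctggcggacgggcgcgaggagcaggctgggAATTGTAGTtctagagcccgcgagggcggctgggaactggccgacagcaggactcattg
The Cs stretch holds 2 SP/KLF matches on opposite strands, and the YY1 match of Pla2g6 reads in the direction of the gene. A match is a description of the letters and not evidence that the factor was bound.

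The score given by the authors has no stated unit and did not exceed 150 in either library. Members had a median score of 133 in replicate 1 and 132 in replicate 2, where the thresholds of the top 10% were 110 and 107. Other shared promoter peaks had medians of 67 and 60, and strong shared distal peaks 125 and 119. Across the 10086 members the score percentiles of the 2 libraries had a Pearson correlation of 0.748 and a Spearman correlation of 0.773, a range restricted at its lower end by the rule. A score of 140 or more in both libraries was found for 1665 members (16.5%), and 2 members had the highest score of 150 in both. The peak centres of the libraries differed by a median of 20 bp, were identical for 33.8% of members and differed by more than 75 bp for 3.25%.

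**Figure D1:**
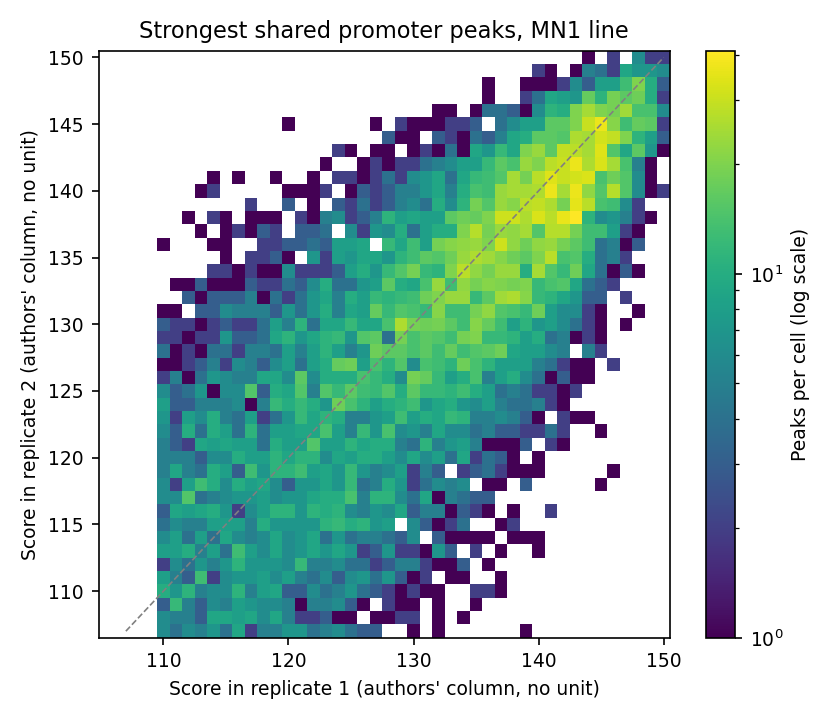
Scores of the 10086 strongest shared promoter peaks in replicate 1 (horizontal axis) and replicate 2 (vertical axis), as the number of peaks per pair of scores on a log colour scale; the dashed line marks equal scores. The cloud begins at the thresholds of 110 and 107, is densest above 135 in both libraries and stays broad near the thresholds.

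The 20 members with the highest mean percentile lay at or above the 99.9 percentile of both lists. After Cand1 and Crocc, the only members at 150 in both lists, they included Pa2g4, a regulator of cell growth, Azin1, an activator of polyamine synthesis, and Dazap2, each with a score of 149 in both replicates. Pja2, a ubiquitin ligase, Tbl2, Sipa1l2 and Lmbr1l also scored 149 in both. Pla2g6, a phospholipase, Larp1b, an RNA-binding protein, and Ankrd11, a chromatin regulator, each scored 150 in replicate 1 and 148 in replicate 2. In 16 of these 20 the centre lay upstream of the nearest start site, as far as -424 bp in Usp34, and the farthest downstream lay at 103 bp in Clip2. The 500 bp at their centres had CpG ratios, observed over expected from base composition, of 0.745 to 1.13. SP/KLF letters were found in 11 of the 20 and NFY letters in 8, whereas Fam76a and Clip2 held none of the 17 motifs. Chromosome 15 carried 5 of the 20 and chromosome 10 carried 4, where these chromosomes held 505 and 653 of all 10086 members. Another peak of Crocc, with 150 and 149, was also among the 20.

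The rule cuts through a continuous range of scores. Just inside it lay Gm12216, D430019H16Rik and Kazald1, with 110 in replicate 1 and 107 in replicate 2. Just outside lay Gmpr2, whose peak also lies within 1 kb of Nedd8, with 135 and 106, Cd164 with 134 and 106, and Fis1, a mitochondrial fission factor, with 133 and 106. These outside peaks were thus 1 score unit short in replicate 2 only. The members whose percentiles differed most between the libraries were Hist3h2a, with 139 in replicate 1 and 107 in replicate 2, Gnptab with 113 and 140, Inpp4a with 110 and 136, Cdc73, a subunit of the PAF1 complex, with 114 and 141, and Mxd3 with 112 and 138.

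The members lay at 9091 of 21755 protein-coding genes, and 41.8% of genes therefore held one. A shared promoter peak of any score was present at 59.1% of genes. One member was found at 6978 genes, 2 at 1758 genes and 3 or more at 355. Plec, which encodes the cytoskeletal linker plectin, held the most, with 10 members spread over 36910 bp and 16 annotated start sites. Their scores ran between 112 and 141 in replicate 1 and between 109 and 144 in replicate 2. Brd2, a reader of acetylated histones, held 8 members within 3430 bp with scores of 113 to 144 in replicate 1 and 117 to 146 in replicate 2. Cic, a repressor that responds to receptor tyrosine kinase signalling, and Gse1 held 7 each, and the 7 of Gse1 were spread over 335310 bp. Dst, a second plakin, held 6, as did H2-DMa and other genes, and ties were ordered by gene name. A member between Brd2 and H2-DMa lay within 1 kb of both and was counted for each. Genes with more annotated start sites offer more windows of 1 kb, so these counts follow the annotation as well as the peaks. A single member lay near more than 1 gene in 1468 cases with 2 genes and 56 cases with 3 or more.

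The members sat close to the start site and mostly just upstream of it. The median centre lay at -35 bp in replicate 1 and -26 bp in replicate 2 (negative values are upstream), against 34 bp and 35 bp for other shared promoter peaks. The quartiles of members ran between -86 and 2 bp in replicate 1 and between -76 and 6 bp in replicate 2, whereas those of other shared promoter peaks ran between -208 and 470 bp in replicate 1. Within 100 bp of a start site lay 69.2% of members in replicate 1 and 71.6% in replicate 2, against 24.0% and 24.2% of other shared promoter peaks. Upstream centres made up 73.3% and 69.3% of members, against 45.4% and 44.5% of the others. By annotation, 48.1% of member centres in replicate 1 lay outside genes, 27.6% in a 5' UTR and 18.8% in an intron, against 21%, 13.2% and 49.0% of other shared promoter peaks. In replicate 2 the 5' UTR share was 32.2% for members and 14.0% for the others.

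**Figure D2:**
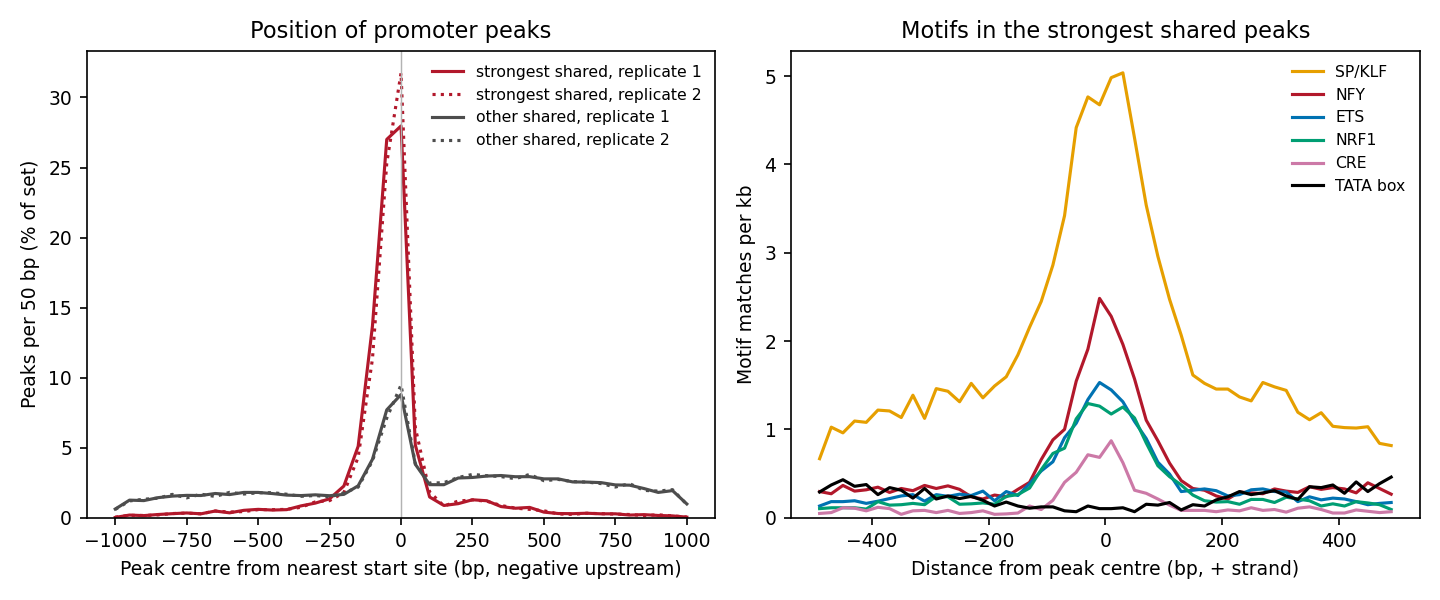
Left, percent of peaks per 50 bp by distance of the peak centre from the nearest coding start site, for the strongest shared promoter peaks (red) and other shared promoter peaks (grey), with replicate 1 solid and replicate 2 dotted. Right, motif matches per kb by distance from the peak centre in the strongest shared promoter peaks of replicate 1; 5 motifs peak at the centre and the TATA box dips there.

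Pairs of genes with start sites facing away from each other were more often present at members than at other promoter peaks. Such divergent coding pairs were found at 1290 members (12.8%) in replicate 1 and 1296 (12.8%) in replicate 2, against 5.90% and 5.83% of other shared promoter peaks. Both start sites had to lie within 1 kb of the peak centre, so the share depends on distance. Among members it was 15.5% within 100 bp of a start site and 2.11% over 500 bp away (15.3% and 2.29% in replicate 2). The sets were not matched for distance, and its part was not tested. Start sites of long noncoding RNAs lay within 1 kb of 11.4% of members in both replicates, against 8.17% and 8.16% of the others. For strong shared distal peaks the shares were 8.90% and 8.86%, so that set, defined by coding start sites only, includes peaks near noncoding starts. Divergent members carried such a start site in 1.47% of cases and other members in 12.8%. ETS letters were found in 20.9% of divergent members and 14.2% of the other members in replicate 1, and in 20.7% and 14.0% in replicate 2. Hjurp with Trpm8 and Gnptab with Dram1 are divergent pairs of this kind.

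A smaller group of members lay far from a start site: 570 (5.65%) in replicate 1 and 568 (5.62%) in replicate 2 had centres over 500 bp away, against 38.6% and 38.2% of other shared promoter peaks. Among the most distant were those at Lhfpl2 (1000 bp), Cd24a (996 bp), Stk35 (994 bp) and N4bp2 (991 bp). These 4 were chosen after their values were seen. ETS letters were present in 3.16% of the 570 members over 500 bp away and in 18.7% of members within 100 bp of a start site, and NRF1 letters in 3.86% and 14.2% (replicate 1). AP-1 letters went the other way, with 7.19% of distant members and 1.5% of near ones, and CTCF with 2.63% and 0.415%. The median CpG ratio was 0.674 in distant and 0.832 in near members. Replicate 2 gave 3.35% and 18% for ETS, 7.57% and 1.6% for AP-1 and ratios of 0.669 and 0.836.

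Members were rich in G, C and CG. Over 500 bp at the centre their median GC content was 63.4% in replicate 1 and 64.0% in replicate 2, against 54.4% in both for other shared promoter peaks and 54.8% for strong shared distal peaks. The median CpG ratio was 0.820 and 0.823 in members, 0.445 and 0.445 in other shared promoter peaks and 0.320 and 0.321 in strong shared distal peaks. A ratio above 0.6, a usual mark of CpG islands, was found for 87.2% and 87.5% of members, 33.8% and 33.8% of other shared promoter peaks and 18.6% and 18.3% of distal ones. The distal peaks, which passed the same score thresholds, were close to the other promoter peaks in GC content and below them in CpG ratio. The Gm12216 member at the threshold had a ratio of 0.233. Distance from the start site was not matched between members and other shared promoter peaks, and its part in these gaps was not tested.

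Most motifs of widely used promoters were several times as frequent in members as in other shared promoter peaks. These sets were not matched for distance from the start site. In replicate 1, 38.6% of other shared promoter peaks lay over 500 bp away, against 5.65% of members. ETS was in 3.16% of members that far away and in 18.7% of those within 100 bp. Other shared promoter peaks may lie at the same genes: 70.7% of genes with a shared promoter peak held a member. The part of distance was not tested. ETS letters were found in 15.1% of members in replicate 1 and 14.9% in replicate 2, against 3.47% and 3.48% of other shared promoter peaks, 3.14% and 3.20% of strong shared distal peaks and 8.38% of windows at the outermost start of every coding gene. NRF1 letters were found in 12.4% and 11.9% of members, against 1.73% and 1.75% of the other promoter peaks and 5.98% of gene starts. SP/KLF letters were the most frequent, with 43.7% and 44.7% of members, against 13.2% and 14.1% of other promoter peaks and 24.2% of gene starts. NFY letters were found in 20.7% and 20.1% of members, 5.47% and 5.24% of other promoter peaks and 11.3% of gene starts. BANP letters, a CG-containing motif whose factor binds unmethylated DNA, had the highest ratio: 1.95% and 1.98% of members against 0.187% and 0.202% of other promoter peaks, with 0.864% of gene starts. Of the 17 motifs, 11 were in a larger share of members than of other shared promoter peaks in both replicates.

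Letters of 6 other factors were also in a larger share of members than of other shared promoter peaks. CRE letters were found in 4.75% and 4.66% of members, against 1.06% and 0.950% of other promoter peaks and 2.62% of gene starts. YY1 gave 3.37% and 3.83% of members against 0.727% and 0.677%, with 2.52% of gene starts. The E-box of USF and MYC gave 5.02% and 4.85% against 1.77% and 1.67%, with 2.78% of gene starts. ZFP143 was rare, with 0.605% and 0.535% of members against 0.120% and 0.0768%, and 0.239% of gene starts. E2F gave 2.08% and 2.10% against 1.04% and 1.03%, with 1.40% of gene starts. RFX letters gave 1.76% and 1.71% of members against 1.23% and 1.22% of other promoter peaks and 1.20% of gene starts, but the strong shared distal peaks held more, 2.59% and 2.62%.

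The remaining 6 motifs were rarer in members than in other shared promoter peaks over peaks of all CpG ratios. AP-1 letters, which are common at enhancers, were found in 2.20% and 2.27% of members, 6.41% and 6.33% of other shared promoter peaks, 17.4% and 17.4% of strong shared distal peaks and 3.02% of gene starts. CTCF, the insulator factor, was matched in 0.644% and 0.663% of members, 1.73% and 1.72% of other promoter peaks, 4.04% and 4.29% of distal peaks and 0.267% of gene starts. The TATA box was found in 1.44% and 1.48% of members, 2.97% and 2.84% of other promoter peaks and 6.81% of gene starts. The CAGCTG E-box gave 7.37% and 7.81% of members, 12% and 12.1% of other promoter peaks, 20.2% and 20.3% of distal peaks and 9.52% of gene starts. TAATTA gave 0.466% and 0.426% of members against 2.07% and 1.89% of other promoter peaks and 1.45% of gene starts, and GATA gave 0.357% and 0.257% against 1.31% and 1.31%, with 1.04% of gene starts.

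**Figure D3:**
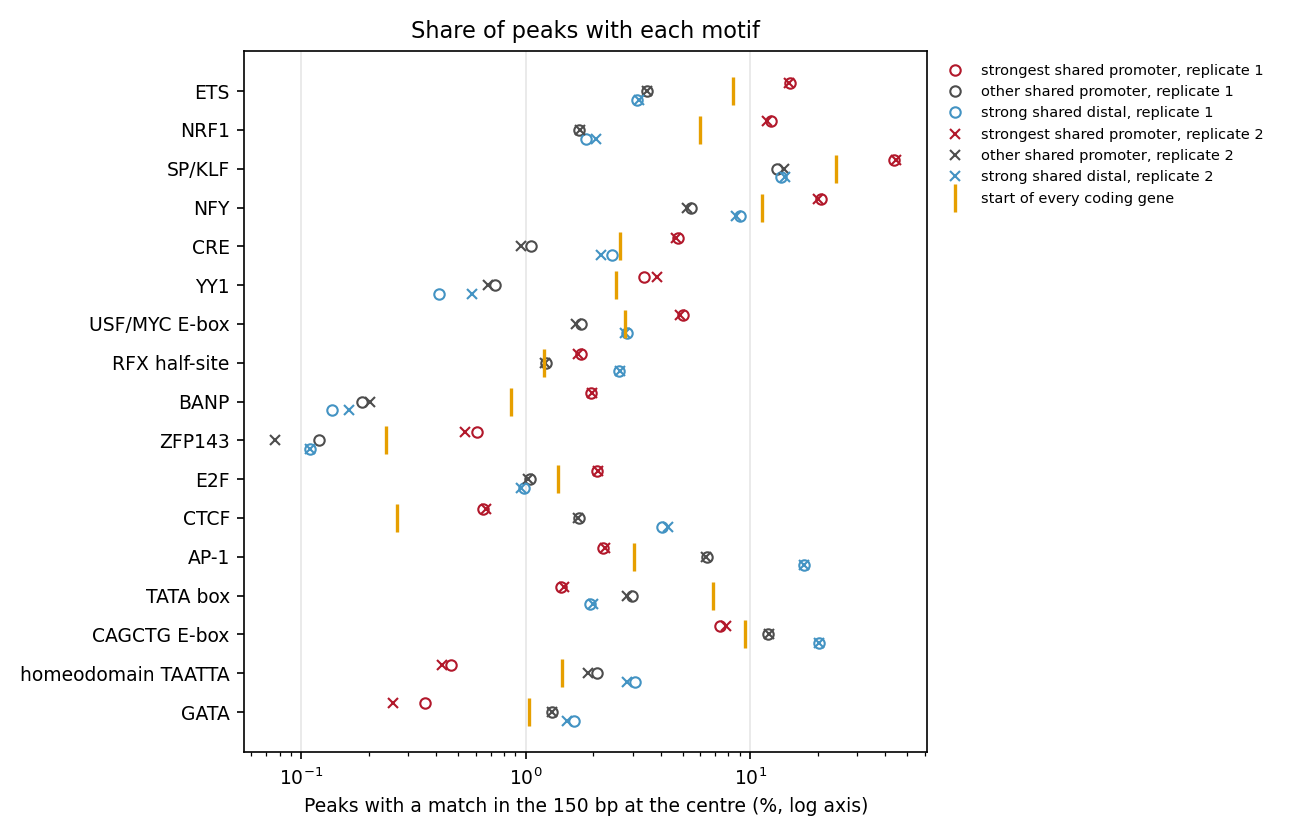
Percent of peaks with a match of each of 17 motifs in the 150 bp at the centre (log axis), for the strongest shared promoter peaks (red), other shared promoter peaks (grey) and strong shared distal peaks (blue), with replicate 1 as circles and replicate 2 as crosses, and the windows at the start of every coding gene as orange bars. Red lies right of grey for the upper 11 motifs and left of it for the lower 6, and the replicates nearly coincide.

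CpG content moved with both the score and the motifs, so the shares were also taken within 3 bands of CpG ratio. In replicate 1 the cuts were 0.745 and 0.887. From low to high the bands held 3363, 3361 and 3362 members and 16662, 2485 and 1750 other shared promoter peaks. The low band is open below and holds most of the other peaks, so CpG ratio is matched less closely there than in the middle band. NFY, whose letters hold no CG in 3 of its 4 forms, was present in 22%, 22.4% and 17.7% of members from the low to the high band, against 5.83%, 4.51% and 3.49% of other shared promoter peaks, which gives ratios of 3.78, 4.97 and 5.07. ETS gave ratios of 4.36, 2.21 and 3.12, NRF1 7.10, 3.05 and 2.91, and BANP 5.23, 5.04 and 5.36. SP/KLF gave 3.94, 1.67 and 1.68. Without bands the ratios were 3.78 for NFY, 4.35 for ETS, 7.20 for NRF1, 10.5 for BANP and 3.31 for SP/KLF. Those of ETS, NRF1, BANP and SP/KLF were thus lower in at least 2 of the 3 bands. That of NFY was the same as rounded in the low band and higher in the middle and high bands. For E2F the ratios were 2.06, 1.00 and 1.31 in replicate 1 and 1.78, 1.44 and 1.38 in replicate 2. Its letters were thus no more frequent in members of the middle band in replicate 1 only. For the 6 rarer motifs the gap was mostly smaller, or turned round, in the middle and high bands. AP-1 gave ratios of 0.504, 0.863 and 0.837 in replicate 1 and 0.490, 0.968 and 1.16 in replicate 2, and the TATA box 0.618, 0.567 and 0.933 in replicate 1 and 0.603, 0.683 and 1.14 in replicate 2. CTCF gave 0.601, 0.807 and 1.15 in replicate 1 and 0.682, 1.58 and 0.522 in replicate 2. GATA gave 0.377, 0.739 and 1.15 in replicate 1 and 0.319, 1.23 and 0.348 in replicate 2, so neither kept a direction in the upper 2 bands. TAATTA, at 0.330 to 0.522, and CAGCTG, at 0.703 to 0.878, were below 1 in every band of both replicates. The parts that composition beyond these bands and distance from the start site play were not tested.

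Matches of several motifs gathered at the middle of the peak. CRE letters occurred 9.35 times as often per kb within 25 bp of the member centre as at 300 to 480 bp from it (8.67 times in replicate 2), NRF1 8.08 (8.03), BANP 8.07 (8.47), ETS 7.08 (7.13), NFY 7.02 (6.63) and SP/KLF 4.30 (4.73). YY1 was denser to the sides of the centre, with 0.202 matches per kb within 25 bp, 0.270 at 25 to 75 bp and 0.0611 at 300 to 480 bp in replicate 1, and 0.204, 0.315 and 0.0644 in replicate 2. E2F showed a ratio of 1.56 (1.37). AP-1 and the CAGCTG E-box were about as dense at the centre as outside, with ratios of 1.05 (1.07) and 1.01 (1.12). The TATA box, TAATTA and GATA were thinner at the centre, at 0.355 (0.313), 0.237 (0.215) and 0.352 (0.297) of the outer density. Base composition also changes from the centre outward, and its part in these ratios was not tested.

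The motifs took different places relative to the start site. Matches were taken only from the 150 bp at member centres, whose median place was -35 and -26 bp, so the medians depend partly on that choice. The median match of NFY lay at -61 bp from the nearest start in replicate 1 and -59 bp in replicate 2, that of ZFP143 at -62 and -60 bp, SP/KLF at -45 and -42 bp, CRE at -33 and -32.5 bp, NRF1 at -30 and -27 bp and ETS at -17 and -16 bp. YY1 differed from these in lying downstream, at 14.5 and 17 bp, and in direction: 72% of its 350 matches in replicate 1 and 72.6% of 401 in replicate 2 read along the strand of the gene. Pla2g6, printed above, is an example with its peak centre 39 bp downstream of the start. TATA boxes had a median place of -28.5 and -27.5 bp, and 72% of 150 and 71.2% of 153 read along the gene. Such a median was not particular to them: the CAGCTG E-box had medians of -28 and -19.5 bp and BANP -23.5 and -23 bp. The TATA boxes were more gathered there than BANP. In replicate 1, 24% of TATA box matches (36 of 150) lay in the 20 bp bin at -30 bp, against 10.2% of BANP matches. The bins at -50 and -10 bp held 10% and 6% of TATA box matches. For ETS, NRF1, SP/KLF, NFY and CRE the share that read along the gene lay between 49.5% and 54.5% in both replicates.

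Single members often carried several kinds of letters. Of 12 promoter motifs (the first 11 listed above and CTCF), 2 or more were found in 30.6% of members in replicate 1 and 30.5% in replicate 2, against 3.93% and 3.81% of other shared promoter peaks and 6.74% and 6.81% of strong shared distal peaks. No match was found in 24.8% and 24.6% of members, 72.6% and 72% of other promoter peaks and 66.0% and 65.7% of distal peaks. Some kinds were seldom found together. NRF1 and NFY letters were both present in 135 members in replicate 1, where the product of their single shares gives 260, and in 121 against 241 in replicate 2. ETS and NFY were both present in 210 members against a product of 315 (198 against 302 in replicate 2). SP/KLF and NFY met in 888 members, close to the product of 912 (893 against 909). YY1 with the E-box of USF and MYC met more often, in 28 against 17.1 and in 37 against 18.8.

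Among the members themselves, letters and shape changed with the score. In 5 groups of equal size by mean score percentile, from the lowest to the highest, NFY letters were found in 10.2%, 15.3%, 19.9%, 25.3% and 32.9% of members. SP/KLF gave 34.5%, 39.8%, 42.0%, 47.0% and 55.1%, and BANP 1.24%, 1.59%, 2.13%, 2.43% and 2.38%. NRF1 was highest in the middle group, with 9.72%, 12.6%, 16.4%, 13.4% and 10.1%. YY1 gave 3.72% in the lowest and 2.18% in the highest group, and CTCF gave 1.59% and 0.0991%. The median CpG ratio was 0.75, 0.788, 0.823, 0.842 and 0.865, and the median width of the hotspot that held the member was 1384.5, 1449, 1526.5, 1630 and 1843 bp. These orderings use the score that chose the members, so they are descriptions with no test.

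Hotspots, the broader accessible stretches in the authors' second kind of list, were wide around members. Their median width was 1576 bp in replicate 1 and 1466 bp in replicate 2, against 872 and 853 bp for other shared promoter peaks and 1116 and 1053.5 bp for strong shared distal peaks. A member was the only peak of its hotspot in 21.9% and 22.9% of cases, against 43.5% and 44.6% of other shared promoter peaks. The widest hotspot with a member lay at Tnrc18, with 12125 bp and 25 peaks in replicate 1, although the member itself scored only 121 and 122. Junb, an AP-1 subunit, lay in a hotspot of 8460 bp with scores of 145 in replicate 1 and 144 in replicate 2. The divergent pair H2-DMa and Brd2 had 6955 bp and scores of 144 and 146, Trim67 6520 bp with 114 and 113, and Vgf, a secreted neuronal peptide precursor, 6499 bp with 143 and 144. Wide hotspots thus occurred at members of both high and low score.

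Genes of protein synthesis held members at most of their promoters, against the background of 41.8% of all coding genes. A member was present at 35 of 35 aminoacyl-tRNA synthetase genes, 49 of 54 translation initiation factor genes, 74 of 83 cytosolic and 64 of 78 mitochondrial ribosomal protein genes. Rpl41 scored 149 in replicate 1 and 146 in replicate 2, Rpl3 149 and 145, Mrpl18 149 and 145, Eif4b, a helicase cofactor, 148 and 148, and Yars, the tyrosyl-tRNA synthetase, 147 and 147. The translation factor genes without a member were Eif3g (101 and 114), Eif3j2 (58 and 44) and Eif4e3 (57 and 82), each with a weaker shared peak, and Eif4e1b and Eif4ebp3 with none. Their letters differed: BANP was found in 10 of 88 member peaks at cytosolic ribosomal protein genes and the TATA box in 8, against 1.95% and 1.44% of all members. NRF1 was found in 18 of 74 member peaks at mitochondrial ribosomal protein genes (24.3%), against 12.4% of all members. These shares were not particular to the ribosomal lists. BANP was in 3 of 21 member peaks at citric acid cycle genes, the TATA box in 2 of 16 at pan-neuronal genes and NRF1 in 6 of 26 at RNA polymerase genes.

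Among protein folding and turnover genes, members lay at 33 of 39 proteasome subunit genes, 37 of 49 ubiquitin-specific protease genes, 15 of 18 cullins and their regulators and 21 of 24 chaperonin and heat shock genes. Hspa8, the constitutive Hsp70 chaperone, scored 149 and 148, Hspa4 147 and 148, Psma6, a core proteasome subunit, 146 and 147, and Rbx1, the RING subunit of cullin ligases, 147 and 146. The cullin genes without a member were Cand2 (82 and 110), Cul2 (102 and 113) and Nedd8 (135 and 106). Hspa1a, Hspa1b and Hspb1, which are induced by heat, had no shared promoter peak, and because Hspa1a and Hspa1b are near-identical copies their values are uncertain.

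Transcription and RNA processing genes were also covered. Members lay at 27 of 30 Mediator genes, 42 of 47 spliceosome genes, 19 of 22 RNA polymerase II and III genes and 23 of 27 nuclear pore genes. Tpr, the basket nucleoporin, scored 148 and 147, Srsf10 145 and 147, and Med20 145 and 144. The polymerase genes without a member, Polr2c (112 and 106), Polr2g (106 and 109) and Polr3a (117 and 106), each missed the threshold of 1 library by 1 to 4 units. Med18 (131 and 102) and Med8 (112 and 104) had weaker shared peaks and Med12l had none. The spliceosome genes Prpf18 (129 and 98), Snrpd1 (109 and 108), Snrpn (84 and 64) and Srsf12 (47 and 44) had weaker shared peaks, as did the nucleoporin genes Ndc1 (85 and 106) and Nup85 (115 and 101). No shared promoter peak was found at Sf3b5, Nup160 or Nup210l. ETS letters were found in 23 of 59 member peaks at spliceosome genes, the largest ETS share among the 30 lists (39.0%). Zinc finger genes named Zfp held a member at 212 of 391, 54.2%, closer to the background than the lists before it.

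Genes of energy metabolism and of cell division followed. Members lay at 17 of 18 citric acid cycle genes, 31 of 36 complex I genes, 34 of 35 DNA replication genes and 35 of 38 centromere and kinetochore genes. Sdhb, a subunit of succinate dehydrogenase, scored 148 and 148, Mdh2 147 and 148, Ndufv2 145 and 146, Gins2, a component of the replicative helicase, 149 and 147, and Cenpf 149 and 144. Genes that lacked a member were Idh3b (121 and 106), Mcm10 (117 and 100), Cenpo (95 and 87), Cenpv (82 and 102) and Knl1 (123 and 103), and the complex I genes Ndufa1 (96 and 97), Ndufa3 (118 and 99), Ndufb11 (106 and 99), Ndufb2 (120 and 106) and Ndufc2 (116 and 98). In each of these a shared peak was present below 1 or both thresholds. E2F letters were found in 8 of 41 member peaks at DNA replication genes (19.5%), where 2.08% of all members held them. NFY letters were found in 15 of 41 (36.6%), where 20.7% of all members held them. Their share was of like size at citric acid cycle (38.1%), Mediator (35.5%) and ciliary transport genes (34.6%). YY1 letters were found in 6 of 36 member peaks at complex I genes (16.7%) and NRF1 letters in 8 of 36 (22.2%), against 3.37% and 12.4% of all members. YY1 was also frequent at aminoacyl-tRNA synthetase genes (14.6%) and proteasome genes (13.2%).

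Cilium and centrosome genes had members at 22 of 26 intraflagellar transport and BBSome genes and at 32 of 36 CEP genes. Ift27 scored 149 and 146, Ift80 146 and 146, Bbs10 146 and 144 and Cep57 147 and 142. Without a member were Bbs1 (92 and 77), Ift43 (95 and 93), Ift81 (109 and 117) and Ttc8 (102 and 115) among the transport genes. Among the CEP genes Cep170b (103 and 102), Cep295nl (100 and 85) and Cep72 (106 and 109) had weaker shared peaks and Cep126 had none. RFX half-sites, the letters of the factors known to drive ciliary genes, were found in 3 of 26 member peaks of the transport list, against 1.76% of all members.

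Neuronal lists were covered in part. Of 24 pan-neuronal genes 12 held a member, near the background share, and 11 others held a weaker shared peak. Tubb3, a neuronal tubulin, scored 146 in replicate 1 and 148 in replicate 2, Nefh, the heavy neurofilament, 144 and 139, Syt1, a synaptic calcium sensor, 141 and 135, and Map2 134 and 142. Of 20 motor neuron and cholinergic genes 7 held a member (35%), below the 41.8% of all coding genes. A weaker shared peak was present at 5 others, and 8 had no shared promoter peak. The 7 were led by Isl1, a LIM homeodomain factor (139 and 138), Lmo4 (134 and 137), Ache, which breaks down acetylcholine (134 and 126), and Isl2 (130 and 114). Slc18a3, the vesicular acetylcholine transporter, had a shared peak with 102 and 109, under the threshold in replicate 1 only, and Chat, which makes acetylcholine, had 61 and 94. Mnx1 and Slc5a7 were among the 8 genes with no shared promoter peak. Among voltage-gated channel genes 11 of 51 held a member (21.6%, against 41.8% of all coding genes), including Cacna1a (142 and 145). Another 17 had a weaker shared peak and 23 had none. ETS letters were found in 0 of 16, 0 of 9 and 0 of 12 member peaks of these 3 lists, where 15.1% of all members held them.

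Genes linked to motor neuron disease held members at 22 of 25 (88%), against 41.8% of all coding genes and 35% of the motor neuron and cholinergic genes. That share was not particular to them: it was 89.4% for spliceosome genes and 87.5% for chaperonin and heat shock genes. Hnrnpa1 scored 149 and 143, Tbk1 145 and 142, Tardbp, which encodes TDP-43, 138 and 143 and Nek1 136 and 146. Ang (106 and 73) and Optn (103 and 105) had weaker shared peaks and Tuba4a had none. Immediate early genes held members at 21 of 25 (84%, against the same 41.8%). They were led by Jund (148 and 150), Klf6 (146 and 149), Btg2 (145 and 145) and Junb (145 and 144). CRE letters were found in 7 of 37 member peaks of that list (18.9%), against 4.75% of all members, and ETS letters in 2. Egr4 (68 and 51), Jun (83 and 92) and Npas4 (27 and 53) had weaker shared peaks and Fosl1 had none.

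Several classes of tissue-restricted genes held few members or none. Collagen genes held 3 of 44, at Col22a1 (130 and 140), Col16a1 (119 and 129) and Col1a1 (112 and 114). A single member peak, with 133 and 132, lay within 1 kb of an annotated start site of Hoxc10 and of Hoxc5 and was counted for both. The other 37 of 39 Hox genes had none. Members were found at 0 of 53 keratin genes, 0 of 1134 olfactory receptor genes, 0 of 12 germ line genes and 0 of 12 markers of other cell types, against the background of 41.8%. Among those markers Gfap, an astrocyte filament gene, had 110 and 101 and Pecam1, an endothelial gene, 51 and 45, and the remaining 10, which include Alb, Ptprc and Myod1, had no shared promoter peak. Olfactory receptor genes form large families of like sequence, in which reads may not map uniquely.

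**Figure D4:**
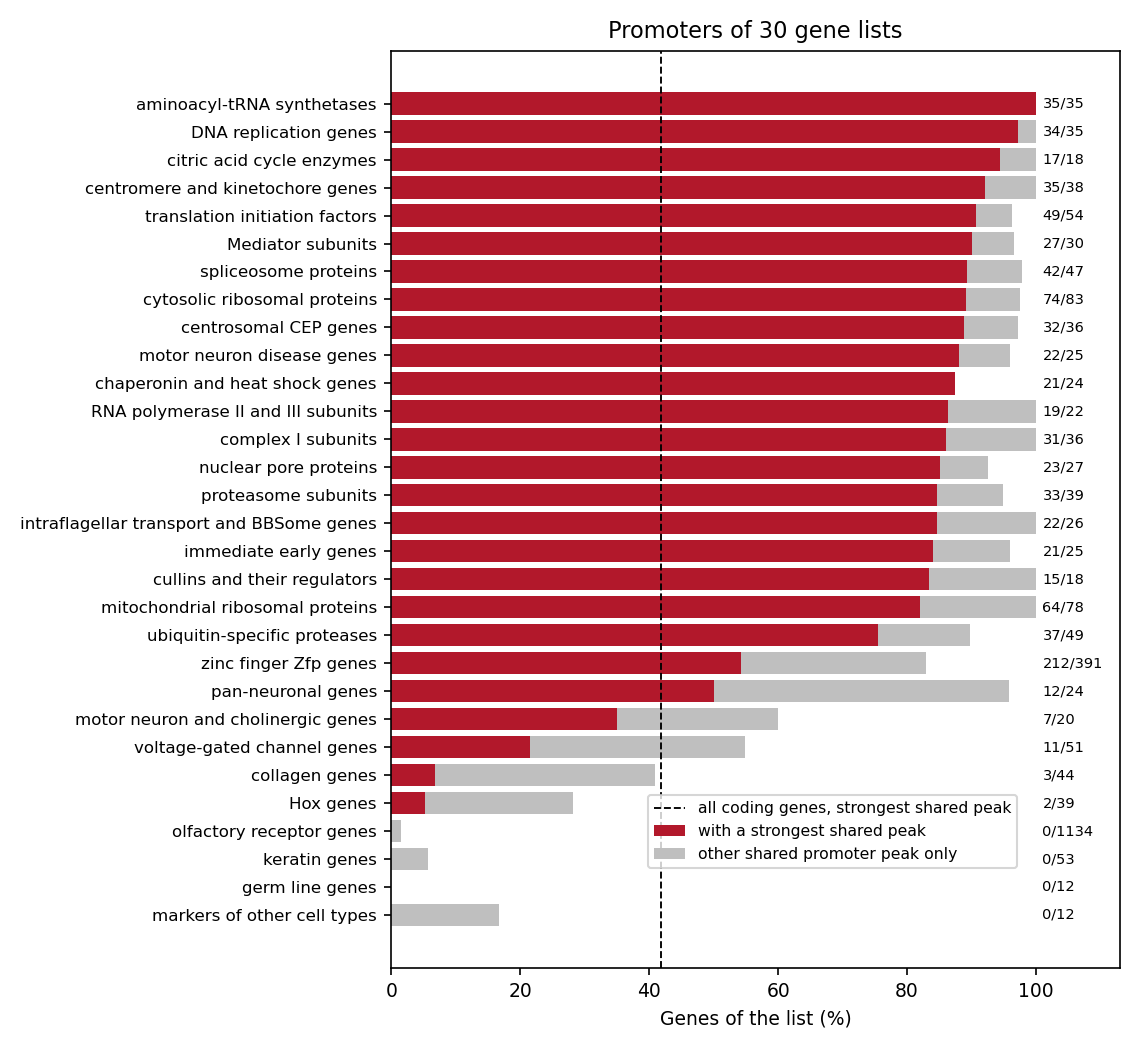
Percent of the genes of each of 30 lists with a strongest shared promoter peak (red) or with only a weaker shared promoter peak (grey); counts at the right give genes with a member of genes in the list, and the dashed line marks 41.8% of all coding genes. Lists of widely used genes lie well right of the line, neuronal lists near or left of it, and 4 lists hold no member.

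The members were spread unevenly over chromosomes. On X, 162 of 948 genes held a member (17.1%), against 8929 of 20807 on the autosomes (42.9%). Of the shared promoter peaks on X, 19.4% in replicate 1 and 19.2% in replicate 2 were members, against 32.9% and 33.0% on the autosomes. Of the 163 members on X, 2 were in the highest of the 5 score groups, among them that of Gm21887 (142 and 143). Hdac6 (137 and 140), Emd (138 and 137) and Suv39h1 (138 and 136) were in the group below it, and these 4 genes were named after their values were seen. The median CpG ratio of members was 0.785 on X and 0.820 on the autosomes. Chromosomes 8, 10 and 15 stood at the other end, with members at 52.8%, 49.6% and 50.8% of genes, and with 32.3%, 34.0% and 34.7% of their members in that group, against 20.3% over the autosomes.

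The scores of distal peaks moved with these shares. They are not independent of the rule, since its thresholds were set over whole lists in which 40389 of 170217 peaks of replicate 1 were promoter peaks. The median score percentile of shared distal peaks was 50.2 in replicate 1 and 41.5 in replicate 2 on X, 66.6 and 62.0 on chromosome 8, 64.2 and 58.4 on chromosome 10 and 66.6 and 63.7 on chromosome 15, against 59.8 and 56.4 over the autosomes. Over the 20 chromosomes this median and the share of shared promoter peaks that were members had a Pearson correlation of 0.828 in both replicates and Spearman correlations of 0.659 and 0.554. Over the 19 autosomes the Pearson values were 0.786 and 0.610 and the Spearman values 0.602 and 0.479. Both measures come from the same libraries and the same score. The part that chromosome-wide differences in score play in the choice of members was not tested.

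**Figure D5:**
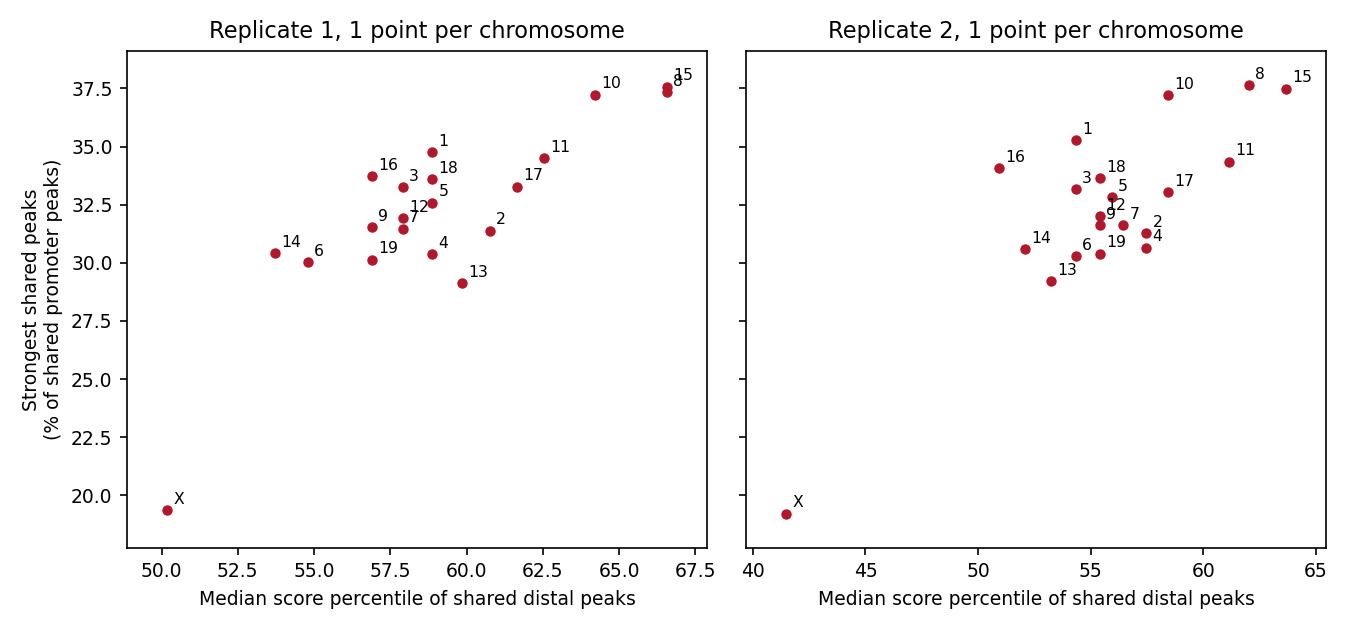
Percent of shared promoter peaks that were strongest shared peaks, by the median score percentile of shared distal peaks on the same chromosome, with 1 labelled point per chromosome and 1 panel per replicate. X lies lowest on both axes, and chromosomes 8, 10 and 15 lie highest on the vertical axis in both panels.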

How the data were processed

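DNase-seq peaks and hotspots of 2 biological replicates of MN1, with 1 library each, were analysed on mm10. Each list comes from the filtered reads of a single library, with no pooling, per the notes supplied with the files. Which aligner, peak caller and thresholds the authors used is not given in the sources. The deposited peak score has no stated unit and reached 150 in both lists, and the deposited hotspot value is a q-value on the −log10 scale, capped at 100. Read depth is unknown, so no interval was computed. The labels name 2 instruments for replicate 2 and none for replicate 1.

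From these files, duplicates were dropped (43 peaks of replicate 1, 20 of replicate 2), chromosomes 1 to 19 and X were kept, and scores were turned into percentiles within each list. Start sites (93196 of 21755 protein-coding genes) came from GENCODE release M21 and bases from the RefSeq copy of GRCm38. GC content and CpG ratio were taken over 500 bp and motifs over 150 bp at the peak centre. The windows at all gene starts lay at the outermost start of each gene. Printed sequences leave out chromosome 18. Genes were named by rule: the 20 members of highest mean percentile, up to 4 genes per list in the same order and every gene without a member where 5 or fewer lacked one, the 5 genes with most members, the 5 widest hotspots, the 3 members just inside and the 3 peaks just outside the threshold, the 5 largest differences between libraries and the leading member per motif. The members and lists were chosen with earlier results of these data known. No test was run, since the series has 1 group and regions are not replicates. The scripts used Python 3.11.15, numpy 2.4.6, pandas 2.3.3 and matplotlib 3.10.9 and were tested on simulated data. Some genes that this rule selects are not reported here.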

Additional observations from a re-analysis of the deposited data

How the results depend on the processing

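The rule found 10086 members, and 5924 with the top 5% in place of the top 10%. Genes with a member made up 28.2% with the top 5%, 40.9% with a reciprocal overlap of 50%, 40.8% with a window of 500 bp, 38.7% with 1 start site per gene, 41.8% from the positions of replicate 2 and 42.9% without chromosome X, a setting chosen after the data were seen. The median distance was -44 bp with the top 5%, -23 bp with 1 start site per gene and -26 bp from replicate 2. The median CpG ratio was 0.843, 0.827, 0.829 and 0.823 with the top 5%, the 500 bp window, 1 start site and replicate 2. Divergent pairs made up 14.6% with the top 5%, 12.9% with the stricter overlap, 11.5% with the 500 bp window, 9.41% with 1 start site, 12.8% from replicate 2 and 12.8% without X. Without one replicate at a time, when no overlap was asked for, there were 11214 to 11945 members at 44.1% to 44.7% of genes, with a median distance of -34 to -22 bp, CpG ratios of 0.808 to 0.825 and divergent pairs at 12% to 12.3%. The number of motifs more frequent in members than in other shared promoter peaks was 11. It was 13 in the upper band of CpG ratio of replicate 1, where the log2 ratios of CTCF and of GATA turned to 0.20. In that band of replicate 2 they did not turn, with plain ratios of 0.522 and 0.348, whereas AP-1 and the TATA box had 1.16 and 1.14. With motifs searched over 150 bp to each side, the shares of members were 7.39% for YY1, 4.22% for E2F, 15.4% for CAGCTG, 3.20% for the TATA box, 4.07% for AP-1, 1.20% for CTCF, 1.09% for TAATTA and 0.902% for GATA, each over 1.5 times that of the narrower window, where more bases were searched. With the top 5% the CTCF share was 0.253%, against 0.644% in the rule as given. The cause of the other shifts was not tested. No paired analysis was possible because the series has 1 group.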
